A study of Homo sapiens with 6 samples.

Results

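The mRNAs of 10 RNA-binding proteins were examined in cells labelled NCI-H929, with and without knockdown of IGF2BP1. They were chosen by gene symbol from the 20030 genes of the deposited table, and comprised the 3 IGF2BP readers (IGF2BP1, IGF2BP2 and IGF2BP3), the 5 YTH readers (YTHDF1, YTHDF2, YTHDF3, YTHDC1 and YTHDC2) and 2 RNA-binding proteins that work on the same transcripts, FMR1 and ELAVL1. All 10 were listed and passed the filter on low counts. NCI-H929 is a human cell line of multiple myeloma, a plasma cell cancer, and the study used it to ask how the m6A reader IGF2BP1 acts in myeloma with a gain of chromosome 1q. RNA-seq comprised 3 libraries labelled IGF2BP1 knockdown (IGF2BP1-KD) and 3 labelled IGF2BP1 Negative Control (IGF2BP1-NC), both from the same line. The knockdown vector was lentiviral, expressed an shRNA from a human U6 promoter and carried puromycin resistance, and stably transduced cells were selected. The insert of the control vector is not given in the sources used here, and neither are separate cultures, so that the p-values measure the spread between these libraries only.

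N6-methyladenosine (m6A) is a methyl mark on adenosines of mRNA, and reader proteins bind it and set the fate of the transcript. The YTH domain holds the methylated base directly: YTHDF proteins do so in the cytoplasm, where YTHDF2 in particular hands mRNAs to deadenylation, while YTHDC1 works in the nucleus on splicing and export and YTHDC2 is an RNA helicase of germ cells and other tissues. IGF2BP proteins bind through K-homology domains, and they protect and store their target mRNAs. ELAVL1 (HuR) stabilizes mRNAs with AU-rich elements and has been described as a cofactor of IGF2BPs, and FMR1 encodes FMRP, a translational regulator on ribosomes. IGF2BP1 and IGF2BP3 are oncofetal genes, high in the embryo and in many tumors and low in most adult tissues.

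The supplementary methods list 2 shRNA target sequences for IGF2BP1 and do not say which of them the sequenced cells carried. They are shown with the best-matching windows of the mRNAs of both paralogs, because these windows show how far each target sets IGF2BP1 apart from its family. Sequences are 5′ to 3′ on the mRNA strand, and capitals mark bases that differ from the target.
IGF2BP1 target 1: cagggaagaatctatggcaaa
IGF2BP3 window for target 1: cagggaagaatTtatggAaaa
IGF2BP2 window for target 1: cagggaCgGatctTtggGaaa
IGF2BP1 target 2: acagtagagaactgtgagcaa
IGF2BP3 window for target 2: GTGgtGgagaGctgtgagcaa
IGF2BP2 window for target 2: acagtGgagaaTGTGgaAcaa

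Target 1 lies in the coding sequence of exon 13 of IGF2BP1 (GRCh38, chromosome 17, 49045893 to 49045913). Its closest window in IGF2BP3 lies in the coding sequence of exon 13 as well (chromosome 7, 23313630 to 23313650, minus strand) and differs at 2 of 21 bases. With positions counted from 1 at the 5′ end of the target, these differences are C12T and C18A, which face bases 10 and 4 of a guide strand that pairs with all 21 bases. In IGF2BP2 the closest window to target 1 (chromosome 3, 185649511 to 185649531, minus strand, exon 14) differs at 4 bases. Target 2 lies in exon 4 of IGF2BP1 (chromosome 17, 49026496 to 49026516), with 5 differing bases in the closest IGF2BP3 window (chromosome 7, 23361691 to 23361711, minus strand, exon 4) and 6 in that of IGF2BP2 (chromosome 3, 185696613 to 185696633, minus strand, exon 4). In the mRNAs of YTHDF1, YTHDF2, YTHDC1, YTHDC2, FMR1 and ELAVL1, the closest windows differed at 7 to 9 bases for target 1 and at 6 to 9 for target 2. YTHDF3 was not searched. Among the members searched, IGF2BP3 had the fewest differences to either target after IGF2BP1 itself, and a bearing of these windows on its level was not tested.

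Library totals lay between 16885449 and 18112179 counts. The labels name multiple myeloma cells, and of 14 plasma cell markers 7 had at most 3 counts in every library (CD27, CD38, FCRL5, IRF4, POU2AF1, TNFRSF13B and TNFRSF17), with CD27 at 0 in all of them, while 3 were above 1 CPM in every library. All 14 erythroid markers were above 1 CPM in every library, and their summed level was 7728 to 9462 CPM in IGF2BP1-NC and 8509 to 9534 CPM in IGF2BP1-KD libraries. The largest part was HBE1, at 4459 to 5090 CPM in IGF2BP1-NC and 4561 to 5417 CPM in IGF2BP1-KD libraries. The summed level of the plasma cell markers was 78.3 to 160 CPM in IGF2BP1-NC and 81.5 to 86.5 CPM in IGF2BP1-KD libraries. Most of this sum was XBP1, at 72.2 to 153 CPM in IGF2BP1-NC and 67.3 to 75.6 CPM in IGF2BP1-KD libraries. These marker lists were drawn up with earlier results of these data known. The 7 genes with at most 3 counts, among them the defining TNFRSF17 and CD38, were thus at or near 0. XBP1, which many secretory and other cells express, was at 54.7 ± 25.1 FPKM in IGF2BP1-NC and 38.6 ± 2.18 FPKM in IGF2BP1-KD (SD, n = 3 each). Its library values overlapped between the groups, and IGF2BP1-NC library 1 was the highest at 83.5 FPKM. The values below describe the cells of these libraries. A difference in bulk RNA does not separate a change per cell from a change in the share of cells.

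In the control libraries, IGF2BP1 and YTHDF2 were the most abundant of the 10 mRNAs per length. The level of IGF2BP1 was 47.0 ± 2.86 FPKM (SD, n = 3) and that of YTHDF2 46.0 ± 2.97 FPKM (SD, n = 3), and the library values of the pair overlapped. They ranked above 92.5% and 92.3% of all listed genes. ELAVL1 followed with 33.3 ± 1.09 FPKM, then YTHDF1 with 25.3 ± 1.82, IGF2BP3 with 21.5 ± 1.29, YTHDC1 with 17.1 ± 0.816, YTHDF3 with 15.1 ± 0.529 and IGF2BP2 with 12.9 ± 0.512 FPKM (SD, n = 3 each). Between these neighbours the library values did not overlap. FMR1 with 9.02 ± 1.04 FPKM and YTHDC2 with 8.63 ± 0.478 FPKM (SD, n = 3 each) were lowest, and their values overlapped each other. In the IGF2BP1-KD libraries the order was YTHDF2, YTHDF1, ELAVL1, IGF2BP3, YTHDF3, YTHDC1, IGF2BP2, IGF2BP1, FMR1 and YTHDC2. YTHDC1 and IGF2BP2, and IGF2BP2 and IGF2BP1, overlapped in that order, and the other neighbours did not.

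**Figure D1:**
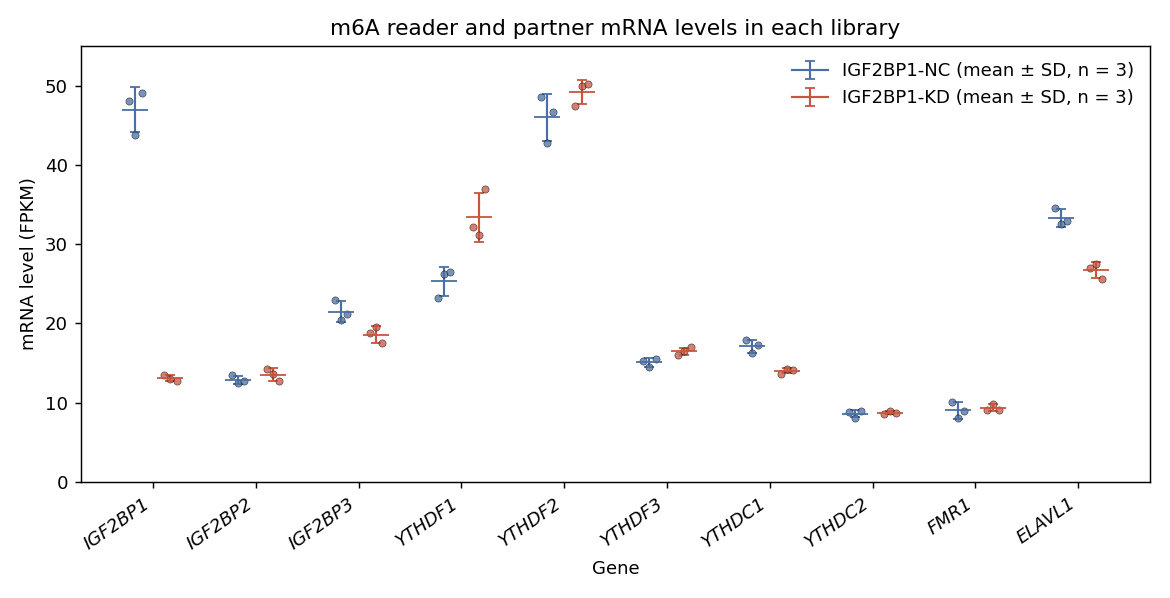
mRNA levels (FPKM, y axis) of the 10 genes (x axis) in each library, as points, with the mean and SD of the 3 IGF2BP1-NC and the 3 IGF2BP1-KD libraries. IGF2BP1 drops from between 43.7 and 49.1 to between 12.8 and 13.5 FPKM. YTHDF1 and, by less, YTHDF3 are higher in every IGF2BP1-KD library, and IGF2BP3, YTHDC1 and ELAVL1 are lower in every IGF2BP1-KD library.

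Of the 10 genes, 1 was higher (YTHDF1) and 4 were lower (IGF2BP1, IGF2BP3, YTHDC1 and ELAVL1) after knockdown at an adjusted p under 0.05 (two-sided quasi-likelihood test of edgeR, Benjamini-Hochberg adjustment). The other 5 did not pass. Among all 11994 tested genes, 13.7% were higher and 14.5% lower at this threshold, 28.2% in either direction. Without IGF2BP1, which the vector targeted, 4 of 9 genes passed. As all 10 are well expressed, the share may also be read against the 6296 tested genes whose mean log2 CPM was at least 5, a threshold chosen after seeing the data, of which 30.2% passed. Library values did not overlap between the groups for 6 of the 10 genes, namely the 5 above and YTHDF3, where this held for 45.6% of all tested genes. The median absolute log2 fold change was 0.17 for the 10 genes and 0.19 for all tested genes. Apart from IGF2BP1, whose absolute change exceeded that of 98.7% of tested genes, the members exceeded between 1.30% (YTHDC2) and 75.1% (YTHDF1) of them.

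**Figure D2:**
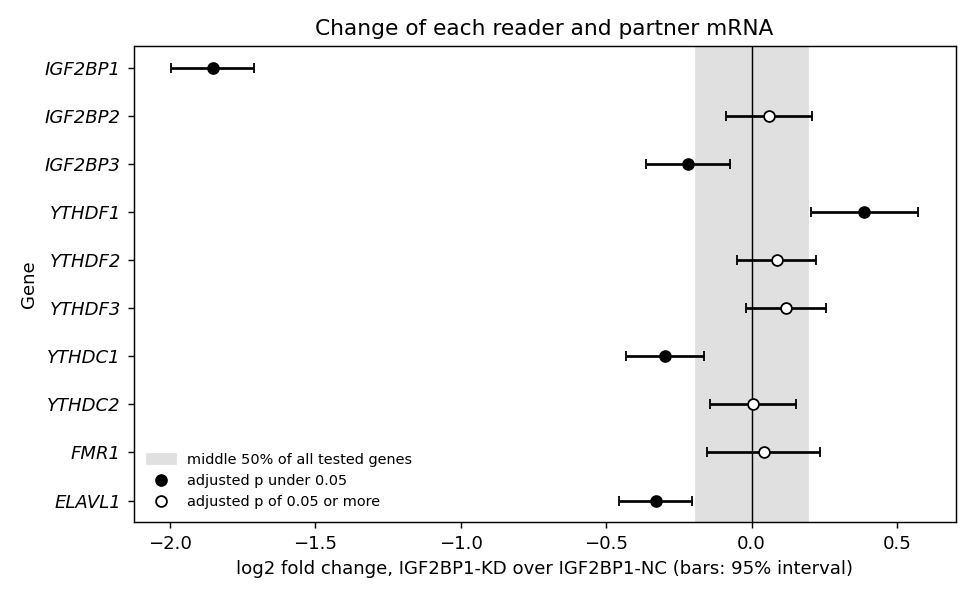
log2 fold change of each gene (y axis) between IGF2BP1-KD and IGF2BP1-NC libraries (x axis) with its 95% interval (edgeR, 3 libraries a group), filled where the adjusted p is under 0.05, over a grey band that holds the middle 50% of all tested genes. IGF2BP1 stands apart at -1.85, while the other 9 genes lie between -0.33 and 0.39.

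The counts of IGF2BP1 itself were 7550, 6904 and 8055 in IGF2BP1-NC, against 2193, 1980 and 2019 in IGF2BP1-KD. All knockdown libraries were far below all control libraries, as their labels say. The mRNA fell by 72.3% (log2 fold change -1.85, 95% interval -2.00 to -1.71, adjusted p = 4.8e-08, edgeR), and 13.1 ± 0.388 FPKM (SD, n = 3) remained.

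IGF2BP3, the paralog with the next highest level, read 22.9, 20.4 and 21.1 FPKM in IGF2BP1-NC, against 18.8, 19.5 and 17.5 FPKM in IGF2BP1-KD. Each knockdown value was under each control value. The decrease was 14.1% (log2 fold change -0.22, 95% interval -0.36 to -0.074, adjusted p = 0.0293, edgeR). It lost the threshold in 3 of 6 leave-one-out fits, namely without IGF2BP1-NC library 3 (adjusted p = 0.0609), IGF2BP1-KD library 1 (adjusted p = 0.0753) or IGF2BP1-KD library 3 (adjusted p = 0.107, edgeR in each). The log2 fold change stayed between -0.25 and -0.17 in the 6 fits. In the GENCODE annotation 1521 of the 4274 bases of the main IGF2BP3 transcript (chromosome 7, 23310209 to 23470491, minus strand) overlap exons of MALSU1, a mitochondrial ribosome assembly factor on the opposite strand. The libraries were made with a stranded kit, but the strand setting of the counting is not given in the sources used here, so that reads of this overlap may not have been told apart. MALSU1 itself had a log2 fold change of 0.052 (95% interval -0.19 to 0.30). Of the 50-base stretches of IGF2BP3 9.42%, and of those of IGF2BP2 7.35%, also occur in transcripts of other genes, none of them a member.

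IGF2BP2 read 13.5, 12.5 and 12.7 FPKM in IGF2BP1-NC, against 14.3, 13.6 and 12.7 FPKM in IGF2BP1-KD. The groups overlapped. Its log2 fold change was 0.059 with a 95% interval of -0.089 to 0.21 (adjusted p = 0.550, edgeR).

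The make-up of the family therefore differed between the groups. IGF2BP1 made up 57.0%, 57.1% and 59.2% of the summed IGF2BP level (FPKM) in IGF2BP1-NC and 29.0%, 28.1% and 29.8% in IGF2BP1-KD. IGF2BP3 made up 25.5% to 27.1% in the control and 40.3% to 42.4% in the knockdown libraries, and thereby had the largest share of the 3 paralogs there. The share of IGF2BP2 was 15.3% to 16.3% against 29.5% to 30.6%. The shares of IGF2BP2 and IGF2BP3 grew as the sum shrank, since the summed level of these paralogs was 34.4 ± 1.80 FPKM in IGF2BP1-NC and 32.1 ± 1.67 FPKM in IGF2BP1-KD libraries (SD, n = 3 each), with overlapping values. The whole family fell from 81.3 ± 4.17 to 45.2 ± 1.94 FPKM (SD, n = 3 each). The ratio of IGF2BP1 to IGF2BP3, which does not depend on how libraries are scaled, was 2.10 to 2.32 in IGF2BP1-NC and 0.663 to 0.731 in IGF2BP1-KD libraries.

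**Figure D3:**
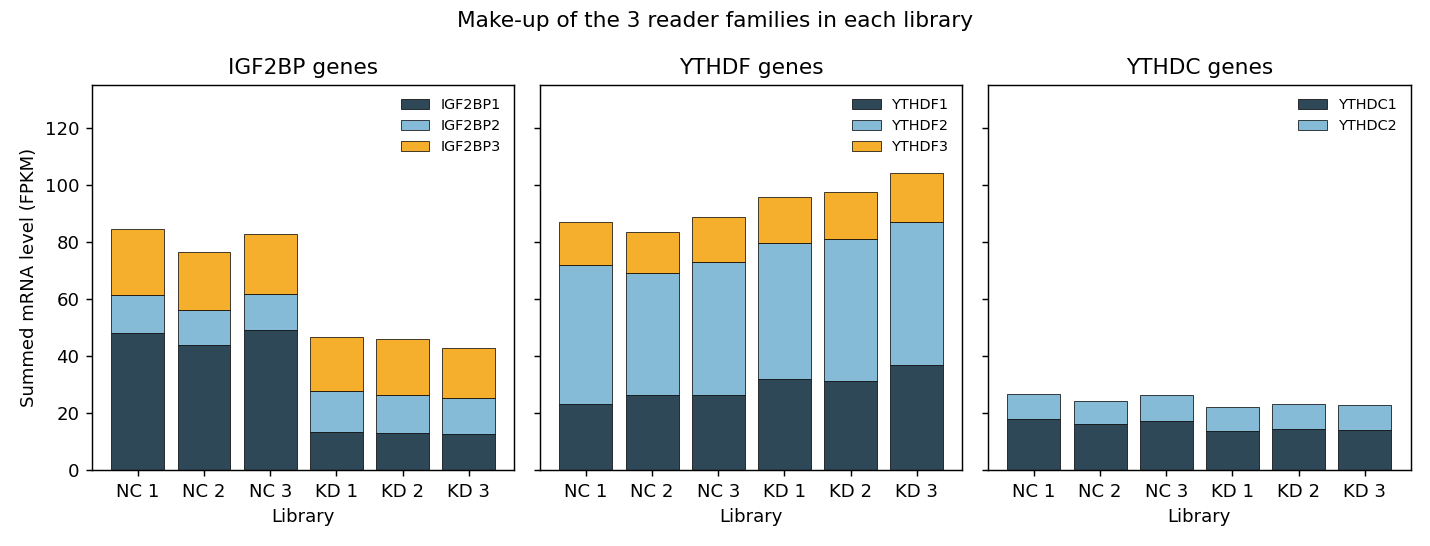
Summed mRNA level (FPKM, y axis) of the IGF2BP, YTHDF and YTHDC genes in each library (x axis), 1 bar per library, divided by gene. The IGF2BP bars shrink from between 76.6 and 84.5 to between 43.0 and 46.6 FPKM, and the YTHDF bars reach 95.6 to 104 FPKM in the knockdown libraries against 83.5 to 88.6 FPKM in the controls.

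Among the YTH readers, YTHDF1 was the gene that rose. YTHDF1, a reader linked to translation of m6A-marked mRNAs, lies on chromosome 20 (63195429 to 63216139, minus strand). Its values were 23.2, 26.3 and 26.5 FPKM in IGF2BP1-NC, against 32.1, 31.1 and 36.9 FPKM in IGF2BP1-KD. The lowest knockdown library was above the highest control library, and IGF2BP1-KD library 3 was the highest of all. The increase was 30.8% (log2 fold change 0.39, 95% interval 0.20 to 0.57, adjusted p = 0.00654, edgeR). Leaving out single libraries gave log2 fold changes of 0.31 to 0.44 and adjusted p of at most 0.0249 (edgeR).

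YTHDF2, the reader that brings in the deadenylase complex, read 48.6, 42.8 and 46.6 FPKM in IGF2BP1-NC, against 47.5, 49.98 and 50.2 FPKM in IGF2BP1-KD. The groups overlapped, and the log2 fold change was 0.087 (95% interval -0.049 to 0.22, adjusted p = 0.320, edgeR). Of its 50-base stretches 13.1% also occur in the pseudogene YTHDF2P1, so that its count is less certain there. YTHDF3 read 15.2, 14.5 and 15.5 FPKM in IGF2BP1-NC, against 16.1, 16.5 and 16.96 FPKM in IGF2BP1-KD. Its groups did not overlap, but the log2 fold change of 0.12 (95% interval -0.018 to 0.26) did not pass the test over all genes (adjusted p = 0.177, edgeR). YTHDF2 remained the most abundant of the 3 YTHDF mRNAs in every library. The ratio of YTHDF1 to YTHDF2 in FPKM was 0.477 to 0.614 in IGF2BP1-NC and 0.623 to 0.736 in IGF2BP1-KD libraries, without overlap, and whether the changes of these paralogs differ was not tested beyond these ranges. The summed YTHDF level was 86.4 ± 2.60 FPKM in IGF2BP1-NC and 99.1 ± 4.40 FPKM in IGF2BP1-KD libraries (SD, n = 3 each).

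YTHDC1, the nuclear reader on chromosome 4 (68310387 to 68350090, minus strand), was lower in the knockdown. It read 17.9, 16.2 and 17.3 FPKM in IGF2BP1-NC, against 13.6, 14.3 and 14.2 FPKM in IGF2BP1-KD, and the groups did not overlap. The mRNA fell by 18.7% (log2 fold change -0.30, 95% interval -0.43 to -0.16, adjusted p = 0.00488, edgeR), and the log2 fold change was -0.33 to -0.28 with each library left out in turn. YTHDC2 read 8.82, 8.08 and 8.97 FPKM in IGF2BP1-NC, against 8.53, 8.91 and 8.72 FPKM in IGF2BP1-KD. The groups overlapped and their means differed by less than the SD of either group. Its log2 fold change was 0.0046 (95% interval -0.14 to 0.15, adjusted p = 0.967, edgeR). The ratio of YTHDC1 to YTHDC2 was 1.93 to 2.02 in IGF2BP1-NC and 1.60 to 1.62 in IGF2BP1-KD libraries.

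For the 8 readers together, the IGF2BP genes made up 41.5% to 42.6% of the summed FPKM in IGF2BP1-NC libraries and 25.3% to 28.3% in IGF2BP1-KD libraries. The 5 YTH genes summed to 107.8 to 114.9 FPKM in the controls and 117.8 to 126.9 FPKM in the knockdown. The level of YTHDF2 was 0.9501 to 1.01 times that of IGF2BP1 in the control libraries and 3.51 to 3.92 times that in the knockdown libraries. These are mRNA levels, and the proteins were not measured here.

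ELAVL1 was lower in the knockdown. Its mRNA, from chromosome 19 (7958573 to 8005659, minus strand), read 34.5, 32.5 and 32.9 FPKM in IGF2BP1-NC, against 27.0, 27.5 and 25.6 FPKM in IGF2BP1-KD. All knockdown libraries were under all control libraries. It fell by 20.4% (log2 fold change -0.33, 95% interval -0.45 to -0.20, adjusted p = 0.00195, edgeR), and its log2 fold change was -0.35 to -0.30 with each library left out in turn. Opposite-strand exons overlap 528 of the 6054 bases of its main transcript. The mainly neuronal paralogs ELAVL2, ELAVL3 and ELAVL4 had no count in any library, so that ELAVL1 was the ELAVL gene detected at this depth. For a gene at 0 the upper limit was 3 counts, or 0.166 to 0.178 CPM, which covers counting error only. FMR1, on chromosome X (147911919 to 147951125), read 10.1, 8.03 and 8.92 FPKM in IGF2BP1-NC, against 9.11, 9.87 and 9.07 FPKM in IGF2BP1-KD. The control libraries spanned the knockdown libraries. Its log2 fold change was 0.042 (95% interval -0.15 to 0.24, adjusted p = 0.755, edgeR).

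To place these genes among the other proteins of m6A reading and of the IGF2BP1 particle, 4 wider lists were read from the same fit. They hold 46 genes in all, of which 41 were tested, with 5 higher and 13 lower at an adjusted p under 0.05 and a median log2 fold change of -0.079 (-0.0048 over all tested genes). Called genes made up 43.9% of the tested genes of these lists against 28.2% of all tested genes. These lists, like the members, were drawn up with earlier results of these data known.

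Of 10 other m6A-binding proteins, 1 was higher and 6 were lower (70.0%, against 28.2% of all tested genes). Their median log2 fold change was -0.24. RBMX, an RNA-binding protein whose access to RNA is opened by m6A, changed by -0.36 on the log2 scale (adjusted p = 0.00109, edgeR). LRPPRC, a regulator of mitochondrial mRNA, and HNRNPA2B1, a nuclear splicing and miRNA-processing protein, changed by -0.28 (adjusted p = 0.00396) and -0.27 (adjusted p = 0.00501, edgeR in both). HNRNPA2B1 went from 420 ± 7.23 to 350.0 ± 8.25 FPKM (SD, n = 3 each), which is far above the level of any YTH or IGF2BP gene. HNRNPC, EIF3B and FXR2 were the other lower genes, and EIF3B and FXR2 lost the threshold in 5 and 1 of 6 leave-one-out fits. SND1 was the higher one (log2 fold change 0.18, adjusted p = 0.0407, edgeR), and lost it in 4 of these fits, without the filter on low counts and with the replicate number as a block. FXR1, PRRC2A and EIF3A did not pass.

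The partners of the IGF2BP1 ribonucleoprotein particle were tested for all 15 genes, and 12 of them did not pass. Of the 4 proteins that form the coding region determinant complex with IGF2BP1, the RNA helicase DHX9 was higher, from 114.5 ± 12.4 to 193 ± 9.73 FPKM (SD, n = 3 each; log2 fold change 0.74, adjusted p = 0.000217, edgeR). The log2 fold changes of the other members of that complex, SYNCRIP, HNRNPU and YBX1, were 0.027, -0.079 and -0.23 with adjusted p of 0.793, 0.397 and 0.0572 in the same edgeR test. CAPRIN1, a stress granule and cell cycle protein, was higher with a log2 fold change of 0.21 (adjusted p = 0.0170), and lost the threshold without IGF2BP1-KD library 1 or 2. G3BP2, another stress granule protein, was lower at -0.35 (adjusted p = 0.00138, edgeR), while its paralog G3BP1 was at -0.091 (adjusted p = 0.397, edgeR). MATR3, which has been described beside ELAVL1 and PABPC1 as an IGF2BP cofactor, had 0.16 (adjusted p = 0.0848), and PABPC1, the cytoplasmic poly(A)-binding protein, -0.045 (adjusted p = 0.604, edgeR in both).

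Of 9 partners of YTH proteins 8 were tested, with 2 higher and 3 lower (62.5%, against 28.2% of all tested genes). SRSF3, a splicing factor that YTHDC1 brings to its targets, went from 139.5 ± 2.63 to 91.5 ± 3.35 FPKM (SD, n = 3 each; log2 fold change -0.62, adjusted p = 6.5e-05, edgeR). SRSF10, a splicing factor that competes with it, had a log2 fold change of -0.048 (adjusted p = 0.615, edgeR). CPSF6, a 3′ end processing factor, was lower at -0.24 (adjusted p = 0.00914, edgeR). RIDA, an adaptor between YTHDF2 and an endonuclease, was lower at -0.34 (adjusted p = 0.0368), and POP1, a subunit of that endonuclease, was higher at 0.27 (adjusted p = 0.0277, edgeR in both). XRN1, an exonuclease that binds YTHDC2, was higher at 0.31 (adjusted p = 0.0163, edgeR). RIDA, POP1 and XRN1 each lost the threshold in 4 of 6 leave-one-out fits. With all 6 libraries, RIDA also lost it under DESeq2 and under upper-quartile factors, and POP1 and XRN1 under limma on log2(FPKM + 1) without a filter. CNOT1, the scaffold of the deadenylase complex that YTHDF2 contacts, was at 0.0088 (adjusted p = 0.928, edgeR). MEIOC, a germ cell partner of YTHDC2, had at most 3 counts in any library.

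Relatives and partners of FMR1 and ELAVL1 numbered 14, of which 10 were tested, with 4 lower and the other 6 not passing. The called genes were 40.0% of those tested, against 28.2% of all tested genes. FXR2, the FMR1 paralog named above, was lower at -0.29 (adjusted p = 0.0111), and FXR1, the other paralog, was at -0.11 (adjusted p = 0.265, edgeR in both). CYFIP1, which links FMRP to actin regulation, was lower at -0.32 (adjusted p = 0.00330, edgeR). CARM1, an arginine methyltransferase that modifies ELAVL1, went from 40.9 ± 1.36 to 30.1 ± 2.33 FPKM (SD, n = 3 each; log2 fold change -0.45, adjusted p = 0.000902, edgeR). ANP32A, an acidic protein that binds ELAVL1, was lower at -0.34 (adjusted p = 0.00686, edgeR).

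**Figure D4:**
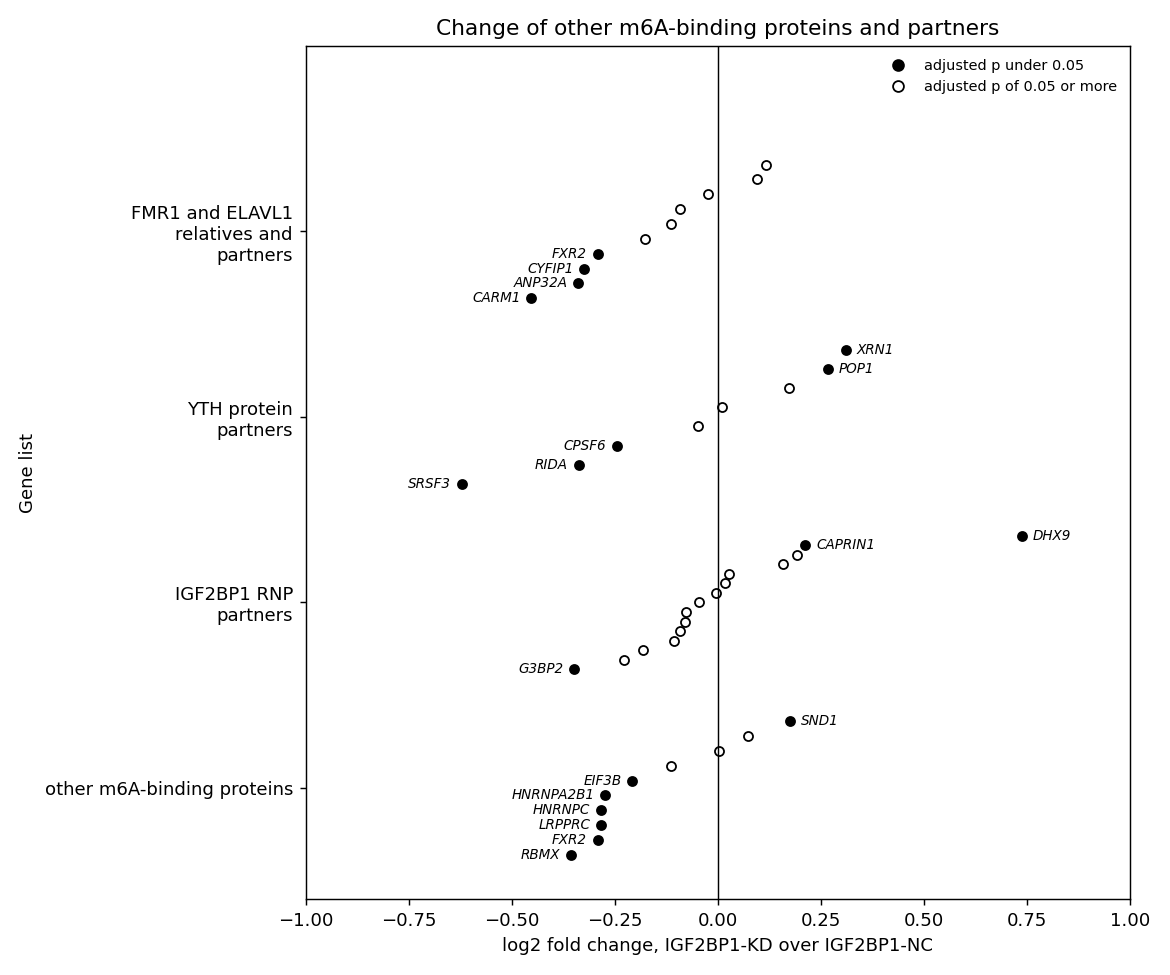
log2 fold change between IGF2BP1-KD and IGF2BP1-NC libraries (x axis) of the tested genes in 4 lists of other m6A-binding proteins and partners (y axis), 3 libraries a group, with filled, named points for an adjusted p under 0.05 (edgeR) and FXR1 and FXR2 in 2 lists. DHX9 is the highest at 0.74 and SRSF3 the lowest at -0.62.

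Markers of the erythroid list moved with the groups too. Of its 14 genes 2 were higher and 6 lower, with log2 fold changes from -0.63 to 2.50, and the list did not move in 1 direction. Called genes made up 57.1% of this list, against 28.2% of all tested genes. The higher genes were SLC4A1 (2.50) and AHSP (0.61), and the lower ones included RHAG (-0.63), NFE2 (-0.30), TAL1 (-0.28), GATA1 (-0.25) and KLF1 (-0.24), each with its log2 fold change. AHSP read 59.3, 59.2 and 36.55 FPKM in IGF2BP1-KD, against 33.3 to 34.0 FPKM in IGF2BP1-NC, so that IGF2BP1-KD library 3 lay near the controls. ALAS2, at 0.73, did not pass (adjusted p = 0.107, edgeR). Of the 5 tested plasma cell markers 1 was higher, SLAMF7. Their part in the changes of the members was not tested.

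Across the 6 libraries, the genes whose log2 CPM followed that of IGF2BP1 most closely were SVIP (Pearson's r = 0.998), TMEM168 (0.997), PQLC1 (0.997), RNF182 (0.9965) and NPEPPS (0.9965), among 9274 genes whose mean log2 CPM was at least 3. The r reflects mainly the split between the groups, since the libraries form 2 sets of 3, and 502 genes had an r above 0.95. Their log2 fold changes of -0.61 to -0.38 were smaller in size than that of IGF2BP1.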

How the data were processed

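The 3 IGF2BP1-KD and 3 IGF2BP1-NC libraries, grouped by their labels, hold RNA of cells that the labels call NCI-H929. The deposited counts per gene were made by the authors with HTSeq-count from HISAT2 alignments (GRCh38) of Trimmomatic-trimmed reads, and are not normalized. Versions, strand setting and annotation release are not given in the sources used here. The deposited FPKM values, described as calculated with Cufflinks, equal the counts per gene length and per library total (median spread of 2.5e-08% over 9309 genes), so that they are the same measurement on another scale. Between both tables, 27 symbols differ, and rows were matched by gene identifiers and order.

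Counts were tested with edgeR 4.0.16 under R 4.3.3 (filterByExpr, normalization by TMM, robust glmQLFit and glmQLFTest, two-sided, Benjamini-Hochberg adjustment over 11994 genes). Standard errors were derived from the F statistic, and 95% intervals from them. FPKM served for levels between genes. Alternatives used DESeq2 1.42.0, limma 3.58.1 (voom, or trend on log2(FPKM + 1) with a mean FPKM of at least 1), other factors and filters, the replicate number as a block and each library left out. On simulated counts with 200 changed genes and a dispersion of 0.01, edgeR recovered 196 of the 199 that passed its filter. It made 12 false calls among 12008 genes. All planted fold changes were larger than those of the members other than IGF2BP1, so that recovery of changes of their size was not tested. Sequences and positions come from GRCh38 with GENCODE release 44, whose main transcript per gene was used, and the shRNA targets from the supplementary methods.

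The members and the lists were chosen with earlier results of these data known. Named genes are all members, of each wider list up to 3 genes per direction with the smallest adjusted p among those under 0.05 whose mean log2 CPM reached 3, and the 5 genes most like IGF2BP1. HNRNPC, EIF3B, FXR2, the erythroid and plasma cell genes and the genes given as not passing were named after their values were seen.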

Additional observations from a re-analysis of the deposited data

How the results depend on the processing

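Each of the 10 members was refitted under 16 alternatives, and 150 of the 160 values kept their direction and their side of the threshold. IGF2BP1, YTHDF1, YTHDC1 and ELAVL1 passed in all of these fits, and IGF2BP2, YTHDF2, YTHDF3, YTHDC2 and FMR1 in none. IGF2BP3 lost the threshold in 6, the 3 leave-one-out fits given above and limma on FPKM with a pseudocount of 1 (adjusted p = 0.0581), with a pseudocount of 0.1 (adjusted p = 0.0581) and without a filter (adjusted p = 0.0807). The sign of the uncalled YTHDC2 turned without the filter on low counts (-0.0046) and without IGF2BP1-NC library 2 (-0.034) or IGF2BP1-KD library 2 (-0.011), so that its values leaving out 1 library ranged from -0.034 to 0.043. That of FMR1 turned without IGF2BP1-NC library 2 (-0.028), with a range of -0.028 to 0.12.

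With a fold change of at least 1.5 as a further criterion, 667 genes were higher and 548 lower, and of the members 0 were higher and 1 lower (IGF2BP1). Without 1 library in turn, the number of higher genes was 1144 to 1929 and that of lower genes 1146 (without IGF2BP1-KD library 2) to 2062. Members called lower numbered 3 or 4, and the member called higher was YTHDF1 each time. Higher genes of the wider lists numbered 1 to 5 with 1 library left out and 3 with limma on log2(FPKM + 1) without a filter, against 5, and fell to 1 without IGF2BP1-KD library 2, to 2 without IGF2BP1-KD library 1 or IGF2BP1-NC library 3 and to 3 without IGF2BP1-NC library 2 or IGF2BP1-KD library 3. Their lower genes numbered 11 to 17. With upper-quartile factors 1953 genes were higher and 1523 lower, against 1648 and 1738.

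The groups share replicate numbers, but same-numbered libraries did not deviate together from their group means (r over genes of -0.052, 0.036 and -0.106), so the numbers were not taken as pairs. With the replicate number as a block, 1413 genes were higher and 1500 lower, and 1 member was higher and 4 were lower, the same genes as without it, with an adjusted p of 0.0491 for IGF2BP3 (edgeR). In the wider lists the block left 4 higher genes, without SND1, and 13 lower ones. At these depths and with 3 libraries a group, the 95% intervals of the members were 0.25 to 0.39 wide on the log2 scale, which limits what can be said of smaller changes.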
